A study of Mus musculus with 8 samples.

Results

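The Eph receptors, their ephrin ligands, the semaphorins and the semaphorin receptors, plexins and neuropilins, were followed in cultured heart muscle cells of C57/Bl6 mouse embryos (embryonic day 12.5; male and female pooled). The cells were grown in control medium (4 libraries) or in medium with 10 µM simvastatin (4 libraries), and RNA was counted per gene. Strain, age and pooling of sexes are shared by both groups, and the extraction label speaks of dissected hearts. Members were all protein-coding genes whose symbol begins with Epha, Ephb, Efna, Efnb or Sema and a number, or with Plxna to Plxnd, plus Nrp1 and Nrp2. There were 53 such genes among 49315 in the tables, and the 43 with at least 10 counts in 4 or more libraries are described. Simvastatin inhibits HMG-CoA reductase, which makes mevalonate, the precursor of cholesterol and of the prenyl lipids attached to small GTPases. No source used here gives the length of the treatment.

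Eph receptors are receptor tyrosine kinases that bind ephrins on neighbouring cells; A-type ephrins are held by a lipid anchor and B-type ephrins span the membrane, so that both contacting cells can receive a signal. Class 3 semaphorins are secreted and mostly signal through a neuropilin paired with an A-type plexin, whereas semaphorins of the other classes act largely at the cell surface and bind plexins directly. These receptors act on small GTPases and so on the actin cytoskeleton. In the developing heart they are known for roles in outflow tract septation, in valve formation and in patterning vessels and nerves.

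Library totals ran from 30474586 to 35215640 counts. By the file headers the libraries came in sets, with replicates 1 and 3 of both media in set 1 and the others in set 2. The headers also carry a number, which is 1 for replicates 1 and 2 of both media and 2 for replicates 3 and 4. Whether libraries that share this header number shared a culture is not stated. No label says what a set was or which libraries came from separate cultures; the p-values therefore rest on the spread between these libraries, which may be technical. Markers of cardiomyocytes summed to 70441 to 83590 CPM (counts scaled by library total, with TMM factors) in controls and to 82815 to 87517 CPM with simvastatin. Markers of other cells summed to less: endothelial markers summed to 324 to 418 and 270 to 348 CPM, endocardial markers to 147 to 248 and 262 to 314 CPM, and epicardial markers to 289 to 451 and 372 to 387 CPM, controls first. At an edgeR adjusted p under 0.05, 7.79% of all genes rose and 9.61% fell. Of 15 cardiomyocyte markers 2 rose and 0 fell. Genes within the endothelial, endocardial and epicardial lists moved both ways. Of 14 endothelial markers 1 rose (Tek, 22.0 to 57.9 CPM) and 1 fell (Emcn, 91.1 to 19.5 CPM). Of 6 endocardial markers 3 rose and 1 fell, and of 10 epicardial markers tested 1 rose and 4 fell. Cushion mesenchyme and fibroblast markers summed to 1282 to 2649 and 1441 to 1648 CPM. Of 11 such markers tested 0 rose and 3 fell (Col3a1, Pdgfra and Tcf21), and 0 to 3 fell in fits without 1 library. Smooth muscle and pericyte markers summed to 2841 to 3831 CPM in controls and 819 to 1115 CPM with simvastatin. Of 9 such markers tested 1 rose and 5 fell. Neural markers summed to 47.2 to 69.5 and 92.1 to 110.9 CPM, and blood markers to 100.6 to 112.3 and 85.8 to 101.3 CPM. Of 7 neural markers tested 2 rose and 0 fell, and of 14 blood markers tested 3 rose and 5 fell. The part of these cells in the results below was not tested, and in bulk RNA fewer cells of a type and less RNA per cell cannot be told apart.

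With simvastatin 5 of the 43 members rose and 4 fell (quasi-likelihood F test of edgeR, Benjamini-Hochberg adjusted p under 0.05 over all genes). The plexin gene Plxna3 and the semaphorin genes Sema3b, Sema4b and Sema4d rose, as did the receptor gene Ephb3; Sema3e, Epha2, Epha4 and Plxna2 fell. That was 20.9% of the members, against 17.4% of the 16126 genes tested (7.79% rose and 9.61% fell), so members were called about as often as other genes. Their median log2 ratio was -0.014, and that of all genes tested 0.011. DESeq2 called 13 members (21.9% of all genes) and limma-voom 7 (17.4% of all genes), and 17 members had an unadjusted edgeR p under 0.05 (29.5% of all genes). In edgeR set 1 alone gave 6 calls (9.82% of all genes) and set 2 alone 13 (18.3% of all genes). The count of rises was 9 in DESeq2 and 3 in limma-voom. In edgeR it was 3 without control replicate 1, 3 or 4 or without simvastatin replicate 1, and 2 without simvastatin replicate 3, whereas falls numbered 3 to 5. The groups did not overlap for 8 members, against 23.1% of all genes.

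**Figure D1:**
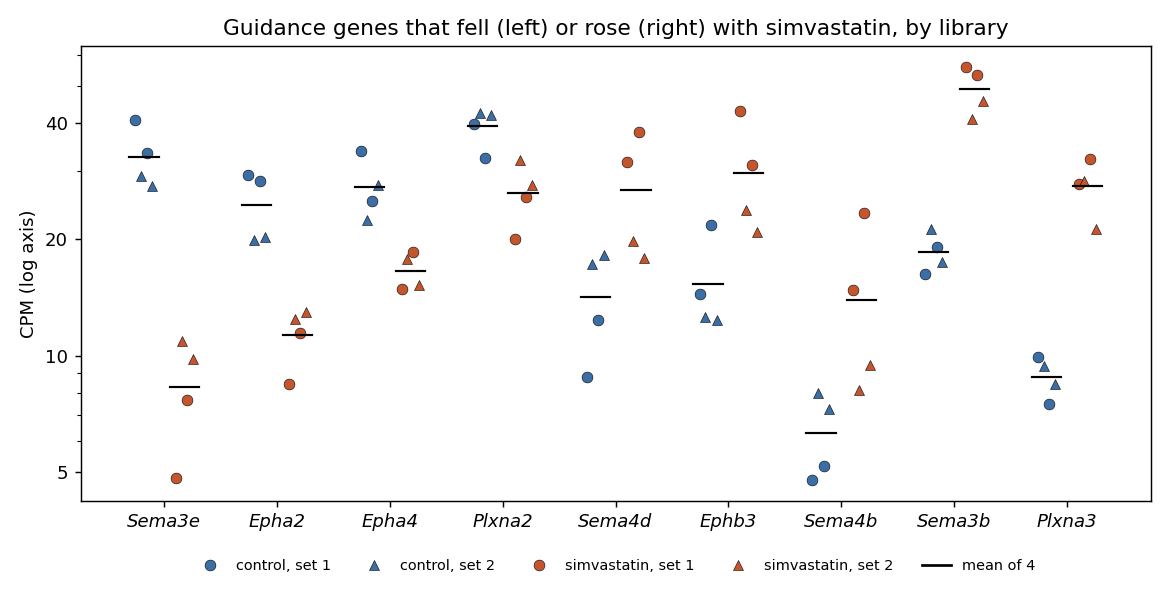
CPM in each library (log axis) of the 9 guidance genes that passed the test, ordered from the largest fall to the largest rise; circles are set 1, triangles set 2, blue control, orange simvastatin, and bars mark the mean of 4. Groups overlap for Sema4d and Ephb3, and the Sema4b and Sema4d libraries with simvastatin are higher in set 1 than in set 2.

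Promoter sequence is shown for 3 of the genes that changed, Epha2, Sema3e and Plxna3, each with 1 RefSeq start site and a change of more than 2 times. The RefSeq table (GRCm38.p6) held 47 of the 53 members and 8 of the 9 that changed; Sema3b was not among them. Each run is the 250 bases upstream of the start site, read 5′ to 3′ on the gene's strand. Capitals mark matches, on either strand, to GGAATG (the core of the MCAT element bound by TEAD factors), to the CArG box of SRF or to CCACACCC (a KLF site); the motifs were chosen with earlier results of these data known.
Epha2, chr4:141300971-141301220, plus strand: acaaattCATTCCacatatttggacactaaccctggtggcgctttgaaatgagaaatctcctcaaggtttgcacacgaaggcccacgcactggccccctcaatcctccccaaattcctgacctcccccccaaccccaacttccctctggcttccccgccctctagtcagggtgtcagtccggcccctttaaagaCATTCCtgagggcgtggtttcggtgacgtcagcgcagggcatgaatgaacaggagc
Sema3e, chr5:14025026-14025275, plus strand: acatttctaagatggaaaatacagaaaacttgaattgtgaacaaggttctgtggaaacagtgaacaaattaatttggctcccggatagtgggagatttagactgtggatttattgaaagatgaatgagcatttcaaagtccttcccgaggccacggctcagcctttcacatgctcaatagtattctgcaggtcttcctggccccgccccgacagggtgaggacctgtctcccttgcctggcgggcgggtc
Plxna3, chrX:74328816-74329065, plus strand: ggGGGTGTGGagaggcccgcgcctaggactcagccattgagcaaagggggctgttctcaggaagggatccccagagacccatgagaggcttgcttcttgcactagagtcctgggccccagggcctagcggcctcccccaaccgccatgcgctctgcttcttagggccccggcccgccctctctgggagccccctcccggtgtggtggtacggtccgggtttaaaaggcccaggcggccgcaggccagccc
The Epha2 window held GGAATG on the opposite strand at 2 places, and the Plxna3 window held 1 KLF match. The Sema3e window held no match to these letters. Of all 32851 promoter windows of this length in the table, 12.6% held GGAATG, 1.47% the CArG box and 3.2% CCACACCC. Among the 48 windows of members past the count rule, 7, 1 and 3 did. A match is a description of the sequence and not evidence of binding.

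Among EphA receptors 2 of 6 fell and 0 rose (9.61% and 7.79% of all genes). The families are small, and no family's count was tested against these shares. Epha2 (chromosome 4, 141301240 to 141329384), a receptor of A-type ephrins, stood at 29.4, 19.98, 28.4 and 20.3 CPM in control replicates 1 to 4 and at 8.44, 12.4, 11.4 and 13.0 CPM in simvastatin replicates 1 to 4. Every simvastatin library was below every control library, and the log2 ratio of simvastatin to control was -1.11 ± 0.19 (SE; adjusted p = 0.00226 in edgeR). It was -1.56 in set 1 alone and -0.66 in set 2 alone. Epha4 (chromosome 1, 77367185 to 77515088), a receptor that binds ephrins of both types, stood at 34.0, 22.5, 25.1 and 27.7 CPM in controls and at 14.8, 17.8, 18.6 and 15.2 CPM with simvastatin. The groups again did not overlap, and the log2 ratio was -0.72 ± 0.15 (adjusted p = 0.00805 in edgeR), with -0.84 in set 1 and -0.60 in set 2. Set 1 alone gave Epha4 an adjusted p of 0.0666 in edgeR; Epha2 was called in each set.

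The other EphA receptors did not pass. Epha7, the EphA gene with the highest simvastatin level per length, had a mean of 35.3 ± 7.32 CPM in controls and 50.4 ± 9.59 CPM with simvastatin (SD, n = 4 per group). Its log2 ratio was 0.51 ± 0.18 (adjusted p = 0.079 in edgeR, DESeq2 adjusted p = 0.046). In edgeR it passed without simvastatin replicate 1 (adjusted p = 0.0278) and with set as a term (adjusted p = 0.0181). It also passed in edgeR in set 2 alone (adjusted p = 0.0197) and with no filter beyond 1 count. Epha3 stood at 3.92 ± 1.12 and 5.84 ± 1.41 CPM (adjusted p = 0.157 in edgeR, or 0.0303 in set 2 alone). Epha1 stood at 1.26 ± 0.459 and 0.55 ± 0.287 CPM, with a log2 ratio of -1.20 and an edgeR adjusted p of 0.0978 that was 0.042 without control replicate 1. In set 2 alone Epha1 had a log2 ratio of -2.05 (adjusted p = 0.0233 in edgeR), against -0.44 in set 1. It overlaps Zyx on the opposite strand, where up to 11115 counts fell in a library against up to 51 for Epha1; whether strand was used in counting is not stated. Epha8 was under 1.1 CPM in each library.

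Of 5 EphB receptors Ephb3 rose and 0 fell (7.79% and 9.61% of all genes). Ephb3 (chromosome 16, 21204755 to 21223305), a receptor of B-type ephrins, stood at 14.4, 12.6, 21.8 and 12.4 CPM in controls and at 43.03, 23.9, 31.1 and 20.9 CPM with simvastatin. The lowest simvastatin library was below the highest control library, and the log2 ratio was 0.96 ± 0.25 (adjusted p = 0.0244 in edgeR), with 1.02 in set 1 and 0.84 in set 2. That call was lost on leaving out control replicate 1, 2 or 4 or simvastatin 1 or 3 (adjusted p up to 0.0726). In edgeR Ephb3 did not pass in set 1 alone (adjusted p = 0.0762) but did in set 2 alone (adjusted p = 0.00391). Ephb4, the partner of ephrin-B2 in veins, was the EphB gene with the highest level per length and stood at 23.9 ± 1.54 and 26.1 ± 5.94 CPM (adjusted p = 0.666 in edgeR). With simvastatin its set 1 libraries, at 31.9 and 30.5 CPM, were above its set 2 libraries, at 21.8 and 20.3 CPM. Ephb6, a member without kinase activity, stood at 3.5 ± 0.977 and 5.41 ± 1.13 CPM (log2 ratio 0.62 ± 0.24, adjusted p = 0.106 in edgeR). Ephb1 and Ephb2 stayed at 1.42 CPM or less in each library.

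The ephrins did not pass. Of 4 ephrin-A and 3 ephrin-B genes, 0 passed in edgeR, DESeq2 or limma-voom (17.4%, 21.9% and 17.4% of all genes). In edgeR 0 had an unadjusted p under 0.05 (29.5% of all genes). With so few genes, whether these counts differ from those shares was not tested. Efna1, the ephrin with the highest level per length and a ligand of EphA2, was the most even: controls stood at 23.3, 29.3, 25.0 and 26.0 CPM and simvastatin libraries at 25.4, 26.4, 27.8 and 26.2 CPM. Its log2 ratio was 0.031 ± 0.11, while its receptor gene Epha2 fell. Efna5 stood at 18.6 ± 2.77 and 14.7 ± 3.56 CPM (log2 ratio -0.35 ± 0.19, adjusted p = 0.264 in edgeR). Efna4 stood at 5.02 ± 0.618 and 4.57 ± 0.503 CPM and overlaps an antisense gene, and Efna2 was under 1 CPM.

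Libraries of a group were widely spread for the B-type ephrins, and the groups overlapped for each of the 3. Efnb1 (X chromosome) ranged from 7.12 to 27.6 CPM in controls and from 12.6 to 37.3 CPM with simvastatin. Its log2 ratio was 0.27 ± 0.41, with 0.88 in set 1 and -0.50 in set 2. Efnb3 stood at 19.6 ± 6.95 and 27.3 ± 4.32 CPM (log2 ratio 0.48 ± 0.24, adjusted p = 0.211 in edgeR). Efnb2, known as a mark of arterial endothelium, stood at 10.9 and 14.5 CPM in the control libraries of set 1 and at 5.03 and 5.08 CPM in those of set 2. With simvastatin it stood at 8.35 and 7.77 CPM in set 1 and at 4.90 and 4.81 CPM in set 2. Each set 1 library was above each set 2 library whatever the medium, and the treatment effect had an edgeR adjusted p of 0.447.

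Among 6 secreted class 3 semaphorins Sema3b rose and Sema3e fell (7.79% and 9.61% of all genes). The fall of Sema3e was the largest of any member. Sema3e (chromosome 5, 14025276 to 14256689), which binds plexin D1 without a neuropilin, stood at 40.9, 29.3, 33.5 and 27.5 CPM in controls. With simvastatin it stood at 4.82, 10.9, 7.64 and 9.81 CPM, and no library of one group reached the other. The log2 ratio was -1.98 ± 0.24, a level 3.95 times lower (adjusted p = 0.000334 in edgeR), with -2.60 in set 1 and -1.45 in set 2. A same-strand gene model, Gm43519, overlaps Sema3e with up to 31 counts in a library, against up to 1436 for Sema3e. Plxnd1, its receptor, stood at 7.93 ± 2.01 and 8.04 ± 1.84 CPM (log2 ratio 0.019 ± 0.22, adjusted p = 0.971 in edgeR).

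Sema3b (chromosome 9, 107597674 to 107609229), a neuropilin ligand, stood at 16.3, 21.2, 19.1 and 17.4 CPM in controls and at 56.1, 41.1, 53.5 and 45.8 CPM with simvastatin. All simvastatin libraries were above all controls, and the log2 ratio was 1.41 ± 0.14, or 2.65 times (adjusted p = 8.42e-05 in edgeR), with 1.61 in set 1 and 1.17 in set 2. Per kb of transcript its mean level went from 3.87 ± 0.453 to 10.3 ± 1.45 CPM, past that of Sema3c, which stood at 5.78 ± 1.18 and 5.72 ± 1.35 CPM per kb. Sema3c, known for its part in outflow tract septation, had a log2 ratio of -0.014 ± 0.20. The nearest other member, Sema3f, lies 72.3 kb away on the same strand and stood at 2.45 ± 1.65 and 1.58 ± 0.437 CPM (adjusted p = 0.372 in edgeR).

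On chromosome 5, Sema3d, Sema3a and Sema3e lie in that order on the plus strand, 536 and 423 kb apart, and Sema3e alone of these was called. Sema3a, a repellent of axons that binds Nrp1, stood at 11.9 ± 2.07 CPM in controls and 16.6 ± 2.14 CPM with simvastatin (log2 ratio 0.48 ± 0.16, adjusted p = 0.0599 in edgeR, DESeq2 adjusted p = 0.0186). It also passed in edgeR in set 2 alone (adjusted p = 0.0335) and with set as a term (adjusted p = 0.0468). Sema3d stood at 22.1, 16.4, 11.5 and 14.3 CPM in controls and at 3.59, 17.1, 9.39 and 14.7 CPM with simvastatin. The simvastatin libraries of set 1 were the lowest of the 8, and the log2 ratio was -1.39 in set 1 and 0.052 in set 2 (pooled adjusted p = 0.433 in edgeR).

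Among the 8 membrane semaphorins past the count rule, Sema4b and Sema4d rose (7.79% of all genes), but mainly in set 1. Sema4b (chromosome 7, 80186841 to 80226527) stood at 4.76 and 5.18 CPM in control libraries of set 1 and at 14.8 and 23.4 CPM with simvastatin. In set 2 it stood at 7.99 and 7.28 CPM in controls and at 8.12 and 9.45 CPM with simvastatin. The pooled log2 ratio was 1.15 ± 0.33 (adjusted p = 0.0348 in edgeR), with 1.92 in set 1 (adjusted p = 0.0106) and 0.20 in set 2 (adjusted p = 0.491). Sema4d (chromosome 13, 51701246 to 51793747), a ligand of plexin B1, stood at 8.77 and 12.3 CPM in set 1 controls and at 31.7 and 38.0 CPM in set 1 with simvastatin. The set 2 values were 17.3 and 18.2 CPM in controls against 19.8 and 17.9 CPM with simvastatin. Its pooled log2 ratio was 0.92 ± 0.29 (adjusted p = 0.0499 in edgeR), with 1.70 in set 1 (adjusted p = 0.00971) and 0.09 in set 2 (adjusted p = 0.706).

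Both calls were lost with limma-voom (adjusted p = 0.0591 for Sema4b and 0.0572 for Sema4d) and in edgeR with set as a term (adjusted p = 0.0531 and 0.0685). The Sema4b call was also lost on leaving out control replicate 1, 3 or 4 or simvastatin 1 or 3, and that of Sema4d without any 1 control or without simvastatin replicate 1 or 3. Sema6d, another membrane semaphorin, had estimates of opposite sign in the sets. It stood at 26.4 and 31.3 CPM in set 1 controls against 41.5 and 60.6 CPM with simvastatin, and at 41.1 and 45.8 CPM in set 2 controls against 31.1 and 31.8 CPM. Its log2 ratio was 0.80 in set 1 (adjusted p = 0.0788) and -0.47 in set 2 (adjusted p = 0.0199), and 0.19 when pooled.

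**Figure D2:**
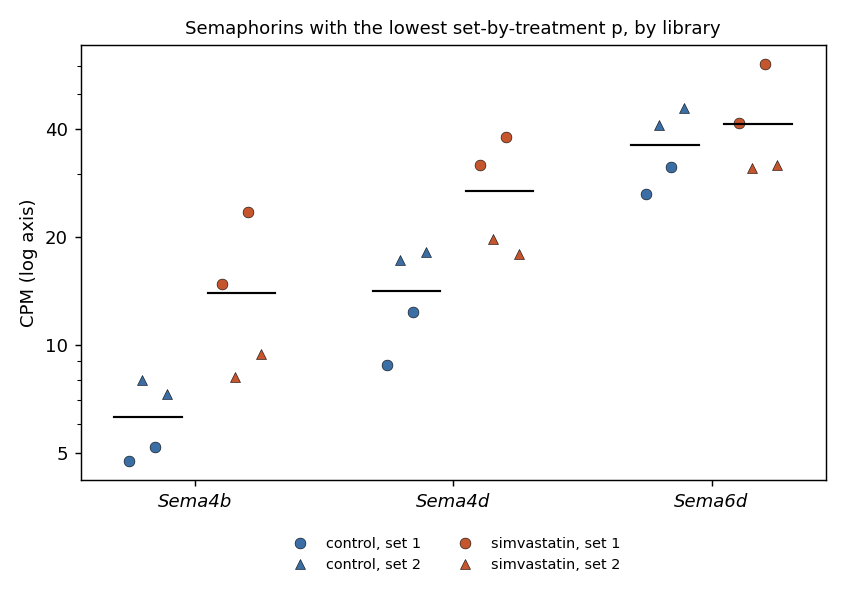
CPM in each library (log axis) of Sema4b, Sema4d and Sema6d; circles are set 1, triangles set 2, blue control, orange simvastatin, and bars mark the mean of 4. In set 1 the simvastatin libraries lie above the controls for each gene, and in set 2 the Sema6d libraries with simvastatin, at 31.1 and 31.8 CPM, lie below both controls.

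The difference in effect between the sets was tested with a set-by-treatment term. Over all genes 0.0558% passed at an adjusted p under 0.05, and no member did (0 of 43), while 6 of 43 members had an unadjusted p under 0.05, against 11.5% of all genes. The 3 lowest belonged to Sema4d (difference of log2 ratios, set 2 minus set 1, -1.63; adjusted p = 0.0648 in edgeR), Sema4b (-1.74; adjusted p = 0.0788) and Sema6d (-1.29; adjusted p = 0.0843). The next were Sema3e (1.13; adjusted p = 0.164), Epha2 (0.88; adjusted p = 0.181) and Sema3d (1.42; adjusted p = 0.374), whose log2 ratios were lower in set 1 than in set 2. The median log2 ratio of cushion mesenchyme and fibroblast markers was -0.87 in set 1 and 0.28 in set 2. That of epicardial markers was -0.84 in set 1 and -0.37 in set 2. The difference between sets was not tested for these lists, and neither was their part in the values above.

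**Figure D3:**
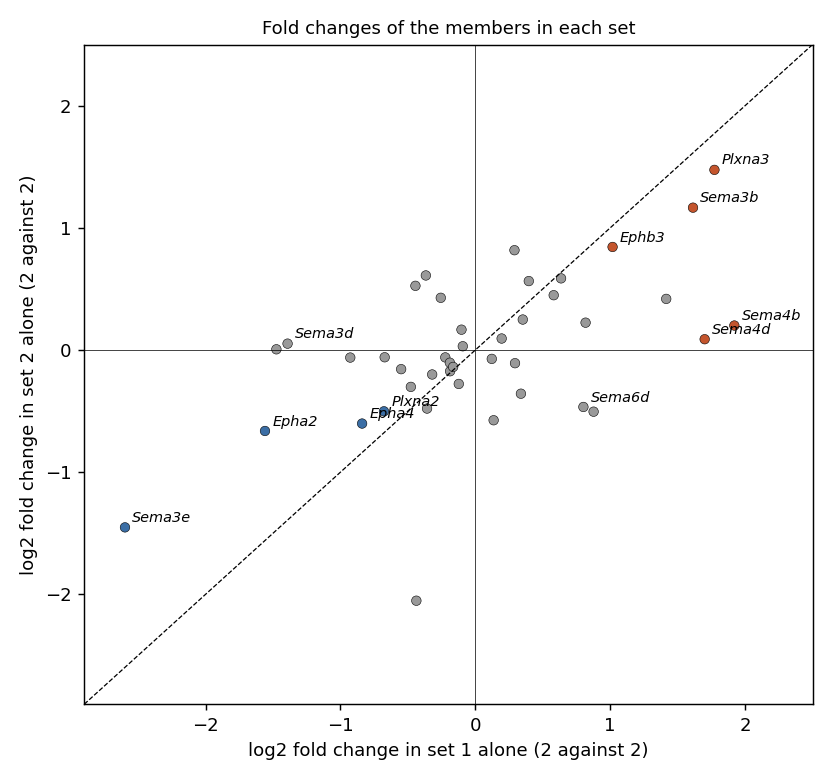
Log2 fold change of each member in set 1 alone (x axis) and in set 2 alone (y axis), 2 libraries against 2 in each; orange genes rose and blue genes fell in the pooled test, grey genes were not called, and the dashed line marks equal values. Epha8 is missing because it was not tested in set 1; Sema4b and Sema4d lie near 0 in set 2, and Plxna3, Sema3b, Ephb3, Epha4 and Plxna2 lie nearer the line.

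The remaining membrane semaphorins did not pass. Sema5a stood at 16.7 ± 4.11 and 12.5 ± 1.76 CPM (log2 ratio -0.41 ± 0.19, adjusted p = 0.178 in edgeR). Sema6a, a plexin A ligand, stood at 4.33 ± 0.806 and 4.86 ± 2.28 CPM, Sema4c at 4.12 ± 1.02 and 4.07 ± 1.13 CPM, and Sema4a at 1.37 ± 0.109 and 1.15 ± 0.203 CPM. Sema4g passed the count rule in 5 libraries and was under 0.6 CPM in each, with a log2 ratio of -0.52 ± 0.48.

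All 9 plexins passed the count rule, and Plxna3 rose while Plxna2 fell (7.79% and 9.61% of all genes). Plxna3 (X chromosome, 74329066 to 74344689), a receptor subunit for class 3 semaphorins, stood at 9.94, 9.41, 7.47 and 8.45 CPM in controls and at 27.8, 28.4, 32.4 and 21.2 CPM with simvastatin. The groups were far apart, and the log2 ratio was 1.64 ± 0.16, or 3.11 times (adjusted p = 8.6e-05 in edgeR), with 1.77 in set 1 and 1.47 in set 2. Plxna2 (chromosome 1, 194618218 to 194816869), whose loss is known to affect the cardiac outflow tract, stood at 39.8, 42.6, 32.6 and 42.04 CPM in controls and at 20.1, 32.1, 25.7 and 27.7 CPM with simvastatin. Its groups came close without overlapping, and the log2 ratio was -0.57 ± 0.15 (adjusted p = 0.0262 in edgeR), with -0.68 in set 1 and -0.50 in set 2. The Plxna2 call was lost on leaving out control replicate 2 or 4 or simvastatin 1 or 3 (adjusted p up to 0.0665). In edgeR Plxna2 did not pass in set 1 alone (adjusted p = 0.0897) but did in set 2 alone (adjusted p = 0.0182).

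The order of the A-type plexins per length differed between media. In controls Plxna1 stood highest at 3.76 ± 0.459 CPM per kb, followed by Plxna2 at 2.29 ± 0.269, Plxna4 at 2.19 ± 0.0572 and Plxna3 at 1.12 ± 0.138 CPM per kb; Plxna2 and Plxna4 did not differ beyond their spread. With simvastatin Plxna3 stood at 3.48 ± 0.588 and Plxna1 at 3.41 ± 0.482 CPM per kb, a difference within their spread, above Plxna4 at 2.44 ± 0.283 and Plxna2 at 1.54 ± 0.289. Plxna1 and Plxna4 themselves did not pass (adjusted p = 0.557 in edgeR and 0.391).

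Plxnb2, a receptor of class 4 semaphorins, had the highest level per length of all members, at 54.1 ± 5.41 CPM per kb in controls and 66.8 ± 5.04 with simvastatin. It supplied 28.5% to 31.9% of the members' summed CPM in controls and 33.8% to 36.4% with simvastatin. In CPM it stood at 358, 428, 347 and 407 in controls and at 432, 520, 479 and 472 with simvastatin, so the groups did not overlap. Its log2 ratio of 0.31 ± 0.10 missed the threshold in edgeR (adjusted p = 0.0574) and limma-voom (adjusted p = 0.0518), and Plxnb2 passed in 5 of 19 alternatives. These were DESeq2 (adjusted p = 0.0376) and edgeR without control replicate 2 (adjusted p = 0.0498) or with set as a term (adjusted p = 0.0157). The others were edgeR with library totals and with a filter of 1 CPM in at least 4 libraries. Plxnb1, the Sema4d receptor, stood at 52.9 ± 6.14 and 46.2 ± 11.0 CPM (log2 ratio -0.20 ± 0.17, adjusted p = 0.49 in edgeR). Plxnc1 stood at 1.82 ± 0.781 and 3.33 ± 1.01 CPM, with a log2 ratio of 0.88 ± 0.33 (adjusted p = 0.0989 in edgeR, or 0.0304 without control replicate 4; DESeq2 adjusted p = 0.0441). Plxnb3 stayed between 1.5 and 2.63 CPM.

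**Figure D4:**
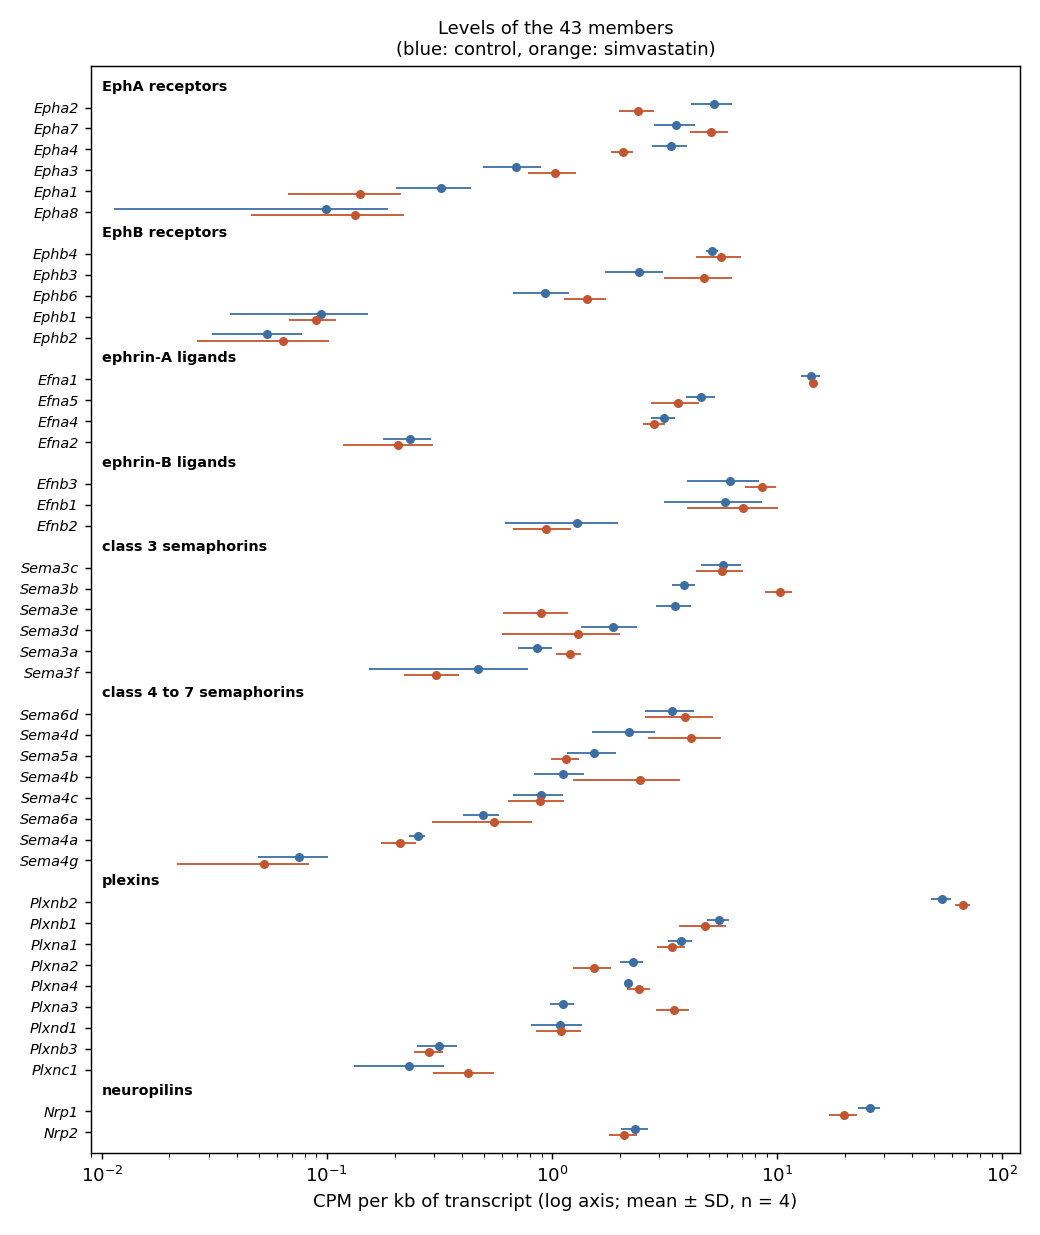
Mean CPM per kb of transcript (log axis) with SD over 4 libraries for the 43 members, by family; blue is control and orange simvastatin. Plxnb2, Nrp1 and Efna1 have the highest levels in both media, and Sema3e, Sema3b and Plxna3 show the widest gaps between media.

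Neuropilins, coreceptors of class 3 semaphorins and of VEGF, did not pass in edgeR with treatment as the only term, in DESeq2 or in limma-voom. That was 0 of 2 in each, against 17.4%, 21.9% and 17.4% of all genes. In edgeR 1 neuropilin had an unadjusted p under 0.05, against 29.5% of all genes. Nrp1 was second among members in level per length. Its controls stood at 265, 266, 209 and 271 CPM and its simvastatin libraries at 164, 226, 180 and 210 CPM. Simvastatin libraries were lower than 3 of the controls, but 2 of them were above control replicate 3. The log2 ratio was -0.37 ± 0.13 (adjusted p = 0.0661 in edgeR), and the test was passed without control replicate 3 (adjusted p = 0.0334), without simvastatin replicate 2 (0.0428), in set 2 alone (0.0414) and with set as a term (0.017). Nrp2 stood at 27.8 ± 3.78 and 24.7 ± 3.53 CPM (log2 ratio -0.17 ± 0.14). Endothelial cells are known to express neuropilins. The endothelial markers had a median log2 ratio of -0.18, with 1 of 14 rising and 1 falling (7.79% and 9.61% of all genes). The part of endothelial cells in the Nrp1 values was not tested.

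**Figure D5:**
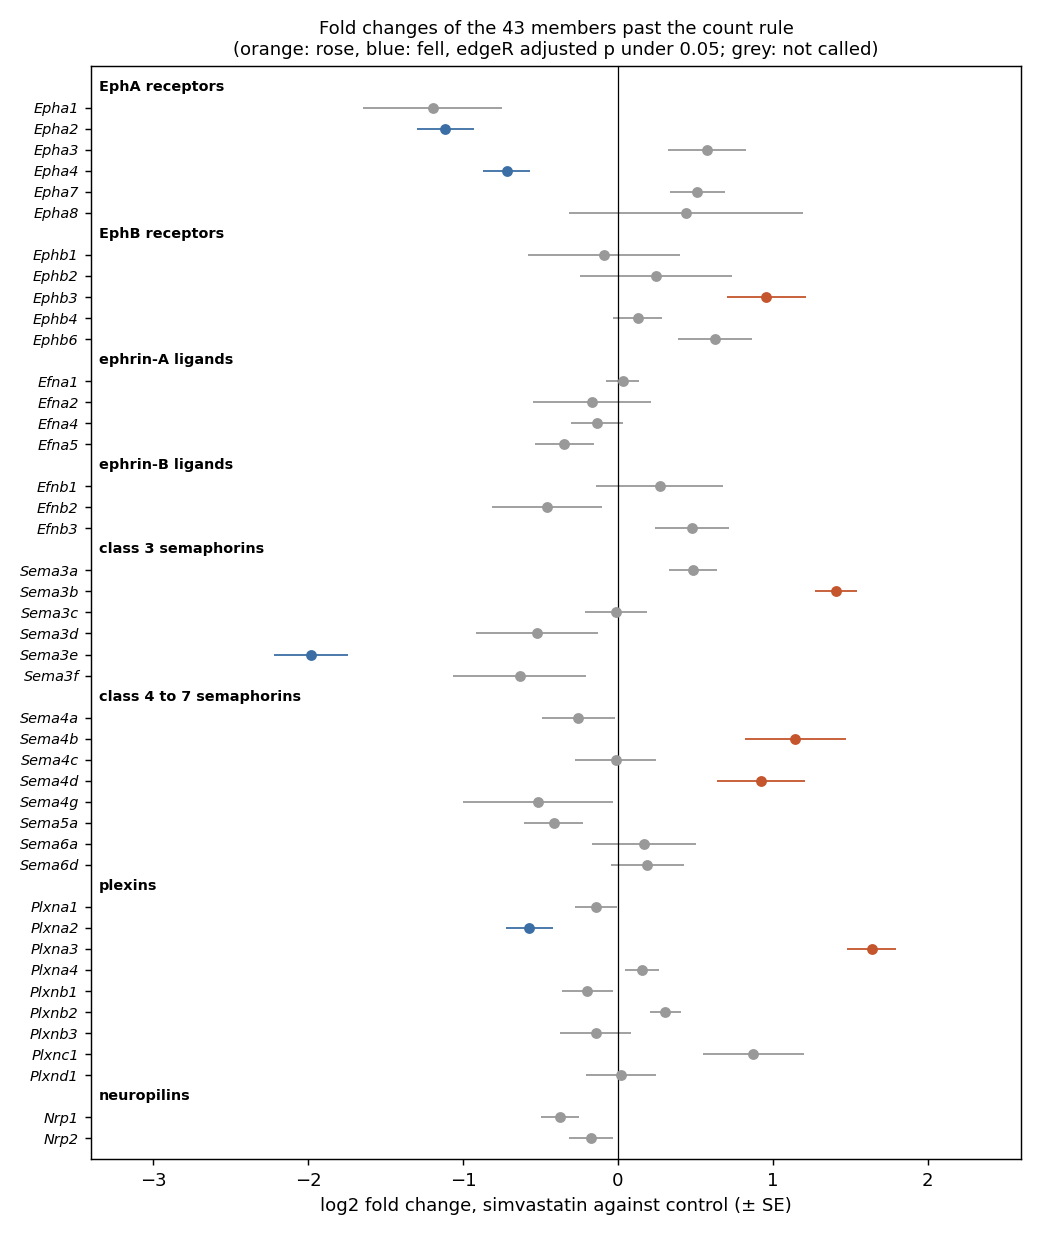
Log2 fold change of simvastatin against control, with its standard error, for the 43 members by family; orange rose and blue fell (edgeR adjusted p under 0.05), grey did not pass. Values run from -1.98 for Sema3e to 1.64 for Plxna3, and the widest bars belong to genes of low counts.

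The genes through which these receptors signal were taken from lists chosen for this pathway. Of 39 semaphorin and plexin signalling partners 7 rose and 6 fell (7.79% and 9.61% of all genes), and the median log2 ratio was 0.15 (edgeR; 6 to 9 rose and 6 fell in each fit without 1 library). The 3 with the smallest p fell: Rnd1, a small GTPase that binds plexins, from 37.4 ± 7.73 to 14.6 ± 2.6 CPM, its relative Rnd3 from 133.6 ± 28.8 to 51.0 ± 10.9 CPM, and Sh3bp1, a GTPase-activating protein of Rac, from 21.0 ± 2.93 to 12.1 ± 0.348 CPM. Their edgeR adjusted p were 0.000582, 0.000706 and 0.00185, and each held in all 8 fits without 1 library.

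Of 26 Eph and ephrin signalling partners 2 passed (17.4% of all genes), both upward, with a median of 0.11. Ngef, a guanine nucleotide exchange factor that binds EphA4, went from 0.189 ± 0.151 to 1.89 ± 1.61 CPM (adjusted p = 0.0202 in edgeR, lost on leaving out control replicate 2 or simvastatin 1 or 3). With simvastatin Ngef stood at 3.06 and 3.48 CPM in set 1 and at 0.288 and 0.724 CPM in set 2, and it did not pass in set 2 alone (adjusted p = 0.28 in edgeR) or in limma-voom (adjusted p = 0.0862). Ptpro, a phosphatase of Eph receptors, went from 3.24 ± 0.55 to 5.29 ± 0.887 CPM (adjusted p = 0.0321 in edgeR, lost on leaving out control replicate 1 or 4 or simvastatin 2 or 3). In the list of other guidance genes (Slit, Robo, netrin, Unc5, Dcc, neogenin, Flrt, Rgm and Lrig families) the median was -0.12, and 2 of 21 tested genes passed (17.4% of all genes), both upward: Flrt1 (2.34 ± 0.621 to 5.96 ± 1.34 CPM, adjusted p = 0.00444 in edgeR) and the netrin gene Ntn1 (16.8 ± 1.45 to 28.2 ± 7.29 CPM, adjusted p = 0.0131 in edgeR). Flrt1 overlaps Macrod1 on the opposite strand, which also rose (log2 ratio 1.28).

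In a list of small GTPases, their effectors and cofilin regulators 2 of 23 genes rose and 2 fell (7.79% and 9.61% of all genes), with a median of 0.18. Rhoa, the GTPase on which many of these receptors act, went from 293.8 ± 19.5 to 599 ± 77.9 CPM (adjusted p = 0.000141 in edgeR); it overlaps Tcta on the opposite strand, with a log2 ratio of 1.83. Pak3, a kinase regulated by Rac and Cdc42, went from 21.2 ± 2.02 to 10.3 ± 1.25 CPM (adjusted p = 0.000507 in edgeR), and the formin gene Diaph3 from 12.5 ± 1.14 to 6.27 ± 0.697 CPM (adjusted p = 0.000996 in edgeR).

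Of the 43 members 37 had at least 10 counts in all 8 libraries. The members nearest the count rule were Epha8 and Sema4g on the inside, with 5 libraries at 10 counts or more, and Efna3, Sema3g and Sema6c on the outside, with 3. The 10 members outside it were Efna3, Epha5, Epha6, Epha10, Sema3g, Sema4f, Sema5b, Sema6b, Sema6c and Sema7a, and none of these 10 exceeded 0.645 CPM in any library. Sema7a, Epha5, Epha6 and Epha10 did not reach 10 counts in any library.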

How the data were processed

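RNA of 8 libraries (4 control, 4 with simvastatin, grouped by title) was analysed from the deposited raw counts per Ensembl gene. The submitters' processing notes list GRCm38 and mm10 as builds and name featureCounts, Subread 1.5.2, STAR 2.5.2b and Trimmomatic 0.36; no source used here gives the annotation release or strand setting. Symbols came from GENCODE M21, which matched 99.3% of identifiers; coordinates are those of the files (1-based). No 2 libraries of a group agreed within sampling noise. Libraries of the same set and medium agreed better than libraries of different sets. Control replicates 1 and 3 were the exception and agreed less well than control replicates 1 and 2.

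Genes were kept by filterByExpr (16126 of 32927 with any count), scaled by TMM and tested with edgeR 4.0.16 (R 4.3.3), glmQLFTest with treatment as the only term, two-sided, Benjamini-Hochberg adjusted at 0.05. SE is the absolute log2 ratio divided by the root of F. CPM per kb divides CPM by the files' exon length. Alternatives were DESeq2 1.42.0 (Wald test, size factors), limma-voom 3.58.1, library totals, other low-count filters, mitochondrial and haemoglobin genes left out, the replicate number as a block, set as a term, each set alone and each library left out. The edgeR step was tested on simulated data, where false calls exceeded the share aimed for. Calls with an adjusted p near 0.05 are therefore less sure than that value says. A set-by-treatment term used the same tool. Figures used matplotlib 3.10.9.

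Members, lists and motifs were chosen with earlier results of these data known. Named were members that passed, the 2 with the highest level per kb in each family, those at 0.5 or more in absolute log2 ratio, and from each list the 3 passing genes of smallest p; other members are given as values or ranges. Precision follows from 4 libraries a group and 30474586 to 35215640 counts each.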

Additional observations from a re-analysis of the deposited data

Results flagged for a closer look

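In 86 groups of 4 libraries (43 members in each medium), 2 libraries stood apart from the other 3 of their group by more than Dixon's 95% limit; chance flags about 1 in 20 groups. Nrp1 stood at 209.3 CPM in control replicate 3, against 264.6 to 271.4 CPM in the other controls. Ephb1 stood at 0.403 CPM in simvastatin replicate 2, against 0.691 to 0.71 CPM in the others, a difference of few counts.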

How the results depend on the processing

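The number of members that rose (5) was 9 with DESeq2's Wald test, 3 with limma-voom and 3 with the replicate number as a block, and 2 to 5 without 1 library; those that fell (4) numbered 2 in set 1 alone and 7 in set 2 alone. The total of 9 ranged from 5 to 10 without 1 library and was 7 with the replicate block, which ended the calls of Sema4b and Sema4d. No label says whether libraries of the same replicate number were paired. Deviations of same-numbered libraries from their group means correlated between -0.16 and 0.13 over genes. Pairs with unlike numbers reached -0.36 (control 1, simvastatin 3) and 0.36 (control 3, simvastatin 1), so these values cannot decide it. In set 2 alone the sign of the log2 fold change turned for Efna1 (-0.073), Efnb1 (-0.50), Ephb4 (-0.11), Sema3c (0.031), Sema3d (0.052), Sema4g (0.0058), Sema6d (-0.47), Epha8 (-0.31) and Ephb1 (0.53), and for Sema3c with library totals (0.0066); of these Sema6d passed. In set 1 alone it turned for Ephb2 (-0.37), Sema4c (0.34), Sema6a (-0.26), Efna2 (0.14) and Plxnd1 (-0.10). With set as a term Sema4b and Sema4d no longer passed, whereas Epha7, Sema3a, Plxnb2 and Nrp1 did. Among the 28 members the rule for named genes picks, the range without 1 library crossed 0 for Efna1 (-0.022 to 0.092), Efnb1 (-0.024 to 0.48), Sema3c (-0.14 to 0.14) and Sema6d (-0.058 to 0.32). The cause was not tested. Plxna3, Sema3b, Sema3e and Epha2 passed in all 19 alternatives, and Epha4 in 18, failing in set 1 alone. The median of the members stayed between -0.11 and 0.028 in all 19. Members under about 1 CPM are limited by counting error, and smaller changes in them could not be detected at this depth.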
